A study of Mus musculus with 6 samples.

Results

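A set of 10 genes that put lipid into very low density lipoprotein (VLDL) or release the lipid for it were followed in mouse liver: *Mttp*, *Tm6sf2*, *Pla2g12b*, *Cideb*, *Ces3a*, *Ces3b*, *Ces1d*, *Ces1g*, *Aadac* and *Tmem41b*. They were chosen by name, as 10 of the 35540 gene symbols measured by RNA sequencing, and all 10 passed the minimum for testing of a mean of 0.1 TPM (transcript abundance scaled to a fixed total in each mouse and corrected for transcript length). The livers of 3 *Surf4* fl/fl *Alb-Cre*+ animals were set against those of 3 *Surf4* fl/fl *Alb-Cre*- littermates, all C57BL/6J, from 1 library each. Replicate 2 was the female mouse of its genotype, and replicates 1 and 3 were the males. Both groups carried the floxed *Surf4* alleles, in which loxP sites flank exon 2. By the study's methods, mice were fasted overnight before samples were taken. In the *Alb-Cre*+ mice Cre recombinase is driven by the albumin promoter and removes exon 2 in hepatocytes. The study considers the remaining mRNA with exon 2 likely to come from other cells of the liver. The age of these mice was not given in the sources used here.

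VLDL carries triglyceride out of the liver on 1 molecule of apolipoprotein B (APOB) per particle. In the endoplasmic reticulum (ER), microsomal triglyceride transfer protein loads lipid onto APOB as it is made, and the particle then takes up more triglyceride before it leaves for the Golgi. That triglyceride comes mostly from lipid droplets, where it is hydrolysed by lipases and esterified again at the ER. SURF4 is a cargo receptor for ER export, and the question here is whether the mRNA of the lipid loading genes differed in livers whose hepatocytes lacked it.

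*Surf4* itself stood at 59.01, 71.84 and 54.32 TPM in the *Alb-Cre*+ mice and at 92.48, 94.51 and 92.5 TPM in the controls. Messenger RNA that lacks exon 2 still counts toward these values. The hepatocyte marker list had 11 of 12 genes in the table, all of them detected, and *Alb* was between 38060 and 55650 TPM. The summed level of the list was 93780 to 126700 TPM in *Alb-Cre*+ mice and 115900 to 132200 TPM in controls. The list held 1 gene, *Apoa1*, with an unadjusted p under 0.05 between genotypes, and the 9 lists for other cell types held 0. Of these, the pancreatic acinar list had 4 of 6 genes at 0 in every mouse and the enterocyte list had 5 of 6 genes below a mean of 0.1 TPM. The acinar list still summed to 17.1 to 22.6 TPM and the enterocyte list to 7.34 to 29.9 TPM. Most of the enterocyte sum was *Apobec1* (7.28 to 29.2 TPM), also read below among genes of the APOB particle.

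The members spanned a wide range of levels per length. In order of mean TPM over the 6 mice they were *Ces3a* (580), *Ces1d* (424), *Aadac* (367), *Cideb* (240), *Ces3b* (124), *Mttp* (109), *Ces1g* (79.0), *Pla2g12b* (63.3), *Tm6sf2* (30.2) and *Tmem41b* (17.8). *Ces3a* was at percentile 98.4 of the genes tested and *Tmem41b* at percentile 74.8. Between neighbours in this order the ranges over mice were apart only for *Aadac* above *Cideb* and for *Pla2g12b* above *Tm6sf2*. *Ces3a* exceeded *Ces1d* in 4 of 6 mice, and *Ces3b* exceeded *Mttp* in 4 of 6. The members also differed in how much they varied among mice: the highest mouse exceeded the lowest 1.33-fold for *Pla2g12b* and *Aadac*, 1.47-fold for *Mttp*, 3.21-fold for *Ces3a*, 4.47-fold for *Ces1g* and 6.89-fold for *Ces3b*.

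**Figure D1:**
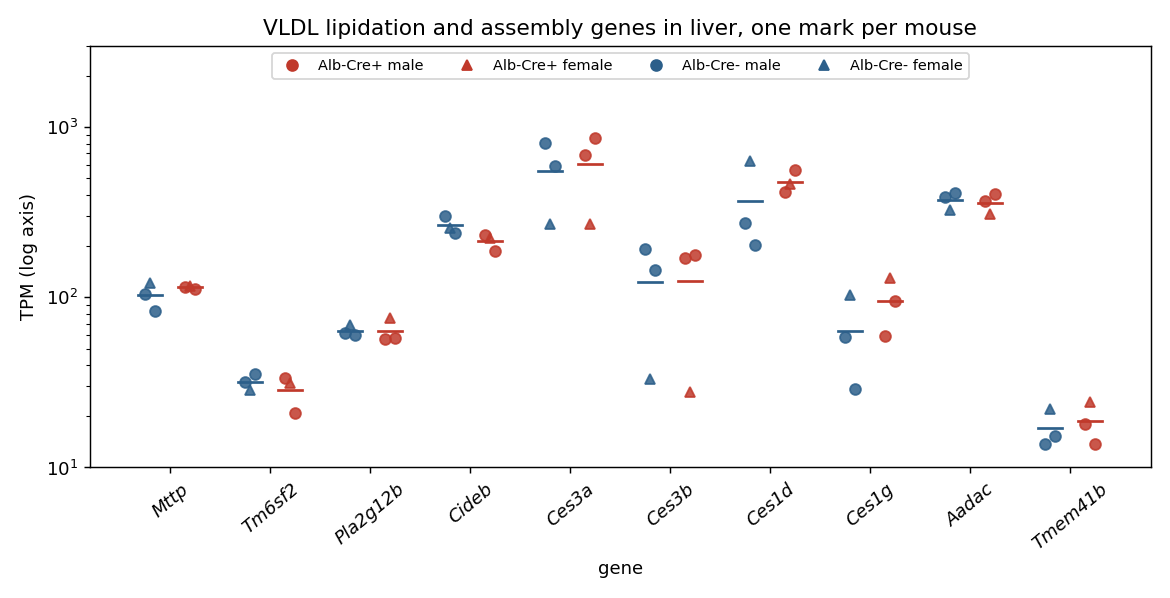
TPM (log axis) of the 10 genes in each of 6 livers, with *Alb-Cre*+ in red, *Alb-Cre*- in blue, circles for male and triangles for female mice, and a line at each group's mean. Only for *Cideb* do all red marks lie below all blue ones, while the triangles lie far below the circles for *Ces3a* and *Ces3b* in both genotypes.

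None of the 10 genes passed the threshold between genotypes (limma on log2(TPM + 0.1), adjusted p under 0.01). Over all 14189 genes tested, 0 passed it (0.0%), the smallest adjusted p was 0.456, and 250 genes (1.76%) had an unadjusted p under 0.05. None of the 10 members was among these 250. The count of 0 genes past the threshold belongs to limma on TPM. The study's own comparison with DESeq2 reported genes at a false discovery rate under 0.01. *Surf4*, the deleted gene, did not pass the threshold either (limma adjusted p = 0.9999), so a gene that did not pass is not shown to be unchanged. The members split evenly, with 5 higher and 5 lower in *Alb-Cre*+ mice, and their median log2 difference was 0.04 against 0.00 for all genes tested. For 8 of the 10, or 80.0%, the difference was smaller than 0.5 on the log2 scale, as it was for 91.3% of all genes. The tables hold livers as a whole, so fewer cells of a type and less RNA per cell cannot be told apart.

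*Mttp* (chr3:138089854-138144968, minus strand, GRCm38 in GENCODE M21, as for all gene positions here), whose product transfers triglyceride to APOB, was at 115, 116 and 112 TPM in *Alb-Cre*+ livers and at 105, 121 and 82.55 TPM in controls. The *Alb-Cre*+ values lay within the range of the controls. The ratio of the groups was 1.13 (95% interval 0.871 to 1.45; log2 difference 0.17 ± 0.16 SE; limma unadjusted p = 0.313). An increase or a decrease of 2-fold in *Mttp* thus lies outside this interval.

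*Tm6sf2* (chr8:70072924-70080066, plus strand) encodes a membrane protein of the ER and Golgi that takes part in the enlargement of VLDL. It was at 33.6, 31.2 and 20.95 TPM in *Alb-Cre*+ mice and at 32.0, 28.55 and 35.2 TPM in controls. The groups overlapped, with the lowest value in *Alb-Cre*+ replicate 3. The log2 difference was -0.18 ± 0.20 (SE), or 0.02 without that mouse. *Pla2g12b* (chr10:59403660-59421976, plus strand), a catalytically inactive relative of secreted phospholipases that is needed for lipid loading of APOB particles, was at 56.8, 75.2 and 57.3 TPM in *Alb-Cre*+ mice and at 62.1, 68.8 and 59.9 TPM in controls. Its log2 difference was -0.02 ± 0.15 (SE), with a 95% interval of the ratio from 0.773 to 1.26. In both groups the female mouse was the highest.

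*Cideb* (chr14:55754050-55758458, minus strand), a lipid droplet and ER protein that binds APOB and is needed for large VLDL, was the only member whose groups did not overlap. Its levels were 232, 222 and 188 TPM in *Alb-Cre*+ livers and 300, 256 and 240 TPM in controls. The highest *Alb-Cre*+ mouse was thus just below the lowest control. Averaged per genotype, this was 214 ± 23.2 TPM (SD, n = 3) with Cre and 265 ± 31.2 TPM (SD, n = 3) without it. This is a ratio of 0.808 (95% interval 0.641 to 1.02), which did not pass the test (limma unadjusted p = 0.0672, adjusted p = 0.9999). An exact permutation test over the 6 mice gave p = 0.1 (two-sided), the smallest that 3 against 3 allows. Among all genes tested, 385 (2.71%) had every *Alb-Cre*+ value below every control and 695 (4.9%) did not overlap in either direction, so 1 of 10 members is near that background. Same-numbered mice resembled each other, and with the replicate number as a block *Cideb* had an unadjusted p of 0.0178 and an adjusted p of 0.890 (limma). In that paired fit 666 of all genes (4.69%) had an unadjusted p under 0.05, and *Cideb* was the 1 member among them.

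*Tmem41b* (chr7:109972187-109986929, minus strand), a lipid scramblase of the ER membrane that is needed for lipoprotein production, was at 17.9, 24.3 and 13.7 TPM in *Alb-Cre*+ mice and at 13.8, 22.1 and 15.3 TPM in controls. Its log2 difference was 0.12 ± 0.26 (SE). *Aadac* (chr3:60025717-60040160, plus strand), a lipid hydrolase of the ER lumen, was at 366, 309 and 407 TPM in *Alb-Cre*+ mice and at 388, 324 and 411 TPM in controls. Its ratio was 0.962 (95% interval 0.745 to 1.24). The female mouse was the highest of its group for *Tmem41b* and the lowest for *Aadac*, in both genotypes.

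Within pairs of same-numbered mice, *Cideb* was lower in *Alb-Cre*+ in all 3 pairs (log2 differences -0.37, -0.20 and -0.35), and so was *Aadac* (-0.08, -0.07 and -0.01). *Ces1g* was higher in all 3 pairs (0.01, 0.33 and 1.71). These 3 of 10 members compare with 23.9% of all genes that kept 1 sign in all 3 pairs.

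The other 4 members are carboxylesterases. *Ces1d* encodes the main triacylglycerol hydrolase that releases stored triglyceride for VLDL. *Ces1g* encodes a related enzyme known to limit lipid synthesis and VLDL output, and *Ces3a* and *Ces3b* encode further ER hydrolases of the family. *Ces1d* was at 418, 463 and 556 TPM in *Alb-Cre*+ livers and at 273, 629 and 203 TPM in controls. Both male controls were below every *Alb-Cre*+ mouse and the female control was above all of them. The log2 difference was 0.54 ± 0.39 (SE), a ratio of 1.46 with a 95% interval from 0.766 to 2.77. *Ces1g* was at 58.9, 130 and 94.98 TPM in *Alb-Cre*+ livers and at 58.3, 103 and 29.0 TPM in controls. Its log2 difference was 0.68 ± 0.48 (SE), a ratio of 1.61 with a 95% interval from 0.735 to 3.52. Without the female control, the log2 difference was 1.01 for *Ces1d* (limma unadjusted p = 0.00217) and 1.12 for *Ces1g* (limma unadjusted p = 0.0362), each with an adjusted p of 1.0. Without the male control replicate 3, it was 0.20 for *Ces1d* (limma unadjusted p = 0.601) and 0.21 for *Ces1g* (limma unadjusted p = 0.603). Either fit leaves the sexes in unequal shares between the genotypes. The means in females and males were 546 and 362 TPM for *Ces1d* and 116 and 60.3 TPM for *Ces1g*.

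*Ces3a* was at 688, 268 and 860 TPM in *Alb-Cre*+ livers and at 803, 270 and 592 TPM in controls. *Ces3b* was at 171, 27.7 and 178 TPM in *Alb-Cre*+ livers and at 191, 33.2 and 145 TPM in controls. In each genotype the female mouse stood far below the males. The log2 differences between genotypes were 0.10 ± 0.53 (SE) for *Ces3a* and -0.04 ± 0.89 (SE) for *Ces3b*. With the replicate block the SE fell to 0.16 and 0.14, and neither gene passed the test (limma unadjusted p = 0.562 and 0.777).

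**Figure D2:**
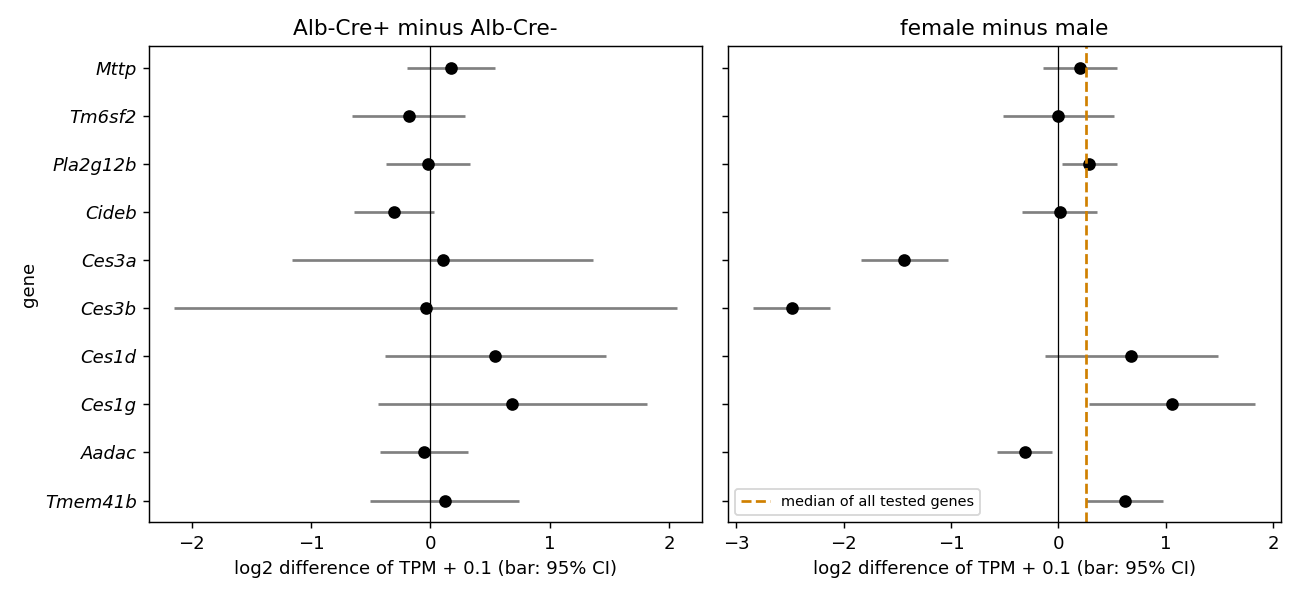
Log2 differences of TPM + 0.1 for the 10 genes, *Alb-Cre*+ minus *Alb-Cre*- on the left and female minus male on the right, as points with 95% confidence intervals from limma. Every interval on the left includes 0, and on the right *Ces3a* (-1.44) and *Ces3b* (-2.48) lie far below the dashed line at the median of all tested genes (0.26).

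These genes are close copies, so how reads were divided between them bears on their values. *Ces3a* lies at chr8:105048601-105058413 and *Ces3b* at chr8:105083753-105093929, on the plus strand and 25339 bases apart. *Ces1d* lies at chr8:93166068-93197838 and *Ces1g* at chr8:93302369-93337308, on the minus strand and 104530 bases apart. The coding sequences of the main *Ces3a* and *Ces3b* transcripts, 1716 bases each, were identical at 95.3% of aligned positions, with a longest identical run of 194 bases. Of all stretches of 31 bases, 42.5% of those in the *Ces3a* transcript also occurred in *Ces3b*. The window of 90 coding bases where they differ most is at their start, with 15 differing bases in capitals:

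Ces3a: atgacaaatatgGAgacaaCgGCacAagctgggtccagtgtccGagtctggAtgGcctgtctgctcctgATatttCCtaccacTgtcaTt

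Ces3b: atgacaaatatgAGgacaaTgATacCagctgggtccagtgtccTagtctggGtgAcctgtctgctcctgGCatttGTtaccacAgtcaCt

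*Ces1d* and *Ces1g* were identical at 82.1% of aligned coding positions and shared 47 stretches of 31 bases, which is 2.38% of those in *Ces1d*. Coding bases 1447 to 1536 hold their longest identical run, 57 bases, and are shown with the 5 differing bases in capitals:

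Ces1d: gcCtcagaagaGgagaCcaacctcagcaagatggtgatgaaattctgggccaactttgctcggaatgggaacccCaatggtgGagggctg

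Ces1g: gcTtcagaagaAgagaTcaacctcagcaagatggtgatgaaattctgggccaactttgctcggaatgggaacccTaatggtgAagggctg

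With *Ces1c*, at a mean of 1591 TPM, *Ces1d* shared 52 stretches of 31 bases (2.63% of its own) and *Ces1g* shared 63 (2.67% of its own). Reads can thus be told apart between *Ces1d* and *Ces1g* over nearly their whole length, whereas the division between *Ces3a* and *Ces3b* is less certain. The sum of *Ces3a* and *Ces3b*, on which that division bears only through their transcript lengths (2046 and 2403 bases), was 731 ± 387 TPM in *Alb-Cre*+ mice and 678 ± 349 TPM in controls (SD, n = 3, exact permutation p = 0.8, two-sided).

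The summed level of the carboxylesterase family overlapped between genotypes. All 20 *Ces* genes together came to 3313 ± 320 TPM in *Alb-Cre*+ mice and 3222 ± 190 TPM in controls (SD, n = 3, exact permutation p = 0.7, two-sided). The 4 members made up 29.5% to 46.3% of this sum. *Ces1c*, which encodes a secreted plasma esterase, was the largest component with 35.6% to 59.7%, and *Ces3a* followed with 7.88% to 25.2%. *Ces1d* was between 6.65% and 18.4%. Of the 20 genes, 14 passed the minimum for testing, and *Ces5a* was listed at 0 in every mouse. *Ces2g* was the 1 gene of the family with an unadjusted p under 0.05 (16.1, 17.6 and 12.65 TPM in *Alb-Cre*+ mice and 11.9, 9.50 and 7.98 TPM in controls, log2 difference 0.66 ± 0.21 SE, limma unadjusted p = 0.0154, adjusted p = 0.9999).

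**Figure D3:**
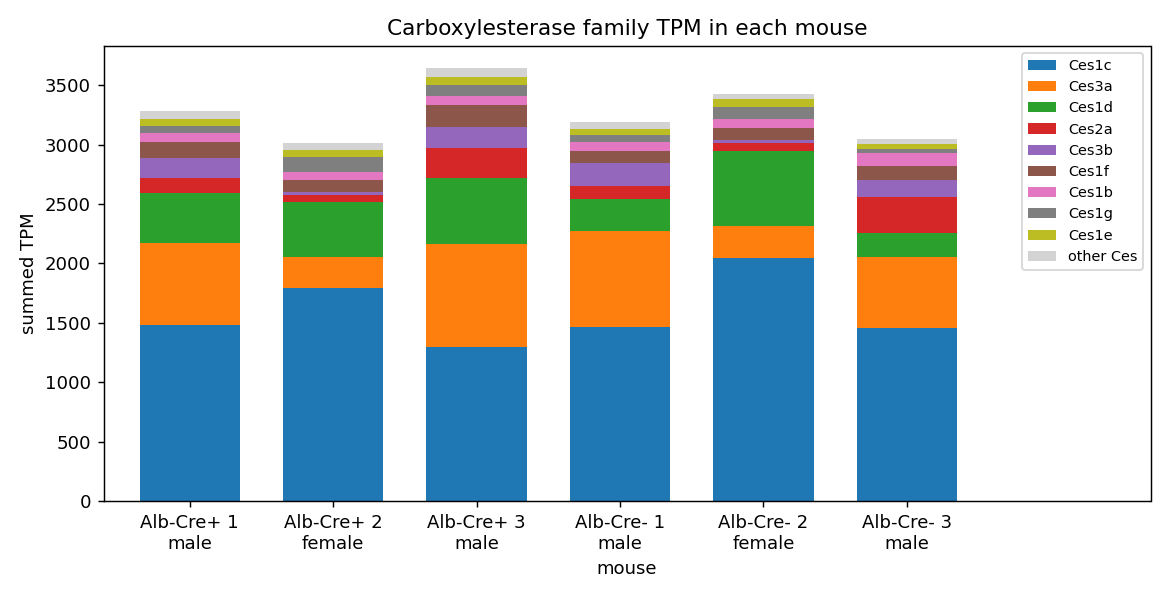
Summed TPM of the carboxylesterase genes in each of the 6 mice, stacked by gene. The totals lie between 3010 and 3648 TPM, and *Ces1c* is the largest part of every bar. The *Ces3a*, *Ces3b*, *Ces2a* and *Ces1f* parts are each smallest in the 2 female mice.

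Of the 10 members, *Ces3b* and *Ces3a* differed most between the female and the male mice. This comparison was chosen after the values had been seen, and because replicate 2 is the female in each genotype, sex and replicate number cannot be told apart. *Ces3b* had 27.7 and 33.2 TPM in the females and 145 to 191 TPM in the 4 males. *Ces3a* had 268 and 270 TPM in the females and 592 to 860 TPM in the males. With genotype and sex as terms, *Ces3b* was 5.59-fold lower in females (log2 difference -2.48 ± 0.15 SE, limma adjusted p = 0.00149) and *Ces3a* was 2.71-fold lower (-1.44 ± 0.17 SE, limma adjusted p = 0.0117). Only *Ces3b* passed 0.01, as did 73 of all genes (0.514%), of which 26 (0.183%) were lower in females. At 0.05, *Ces3a* passed too, beside 1019 of all genes (7.18%). Of the same family, *Ces2a* (-1.57 ± 0.43 SE), *Ces2c* (-1.56 ± 0.37 SE) and *Ces1f* (-0.48 ± 0.18 SE) were also lower in both females than in every male. Their limma adjusted p were 0.0772, 0.0550 and 0.151. In contrast, *Ces1c* and *Ces1g* were higher in both females than in every male. *Ces3b* lost its call without either female mouse (limma adjusted p = 0.0997 without the *Alb-Cre*+ female and 0.0604 without the control female), where the log2 difference was -2.32 and -2.65. These fits hold 1 female, assumed to vary like the other mice. The exact permutation test gave p = 0.133 for each of the 2 genes (two-sided, as the doubled one-sided p). This is the smallest that 2 against 4 allows under that doubling.

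Across all genes tested, the median log2 difference of female minus male was 0.26, and it was -0.01 after scaling by the median of ratios. Relative to that shift, *Pla2g12b* (0.29 ± 0.11 SE) and *Mttp* (0.20 ± 0.14 SE) were near the median of all genes. *Mttp* was at -0.08 and *Cideb* at -0.27 after that scaling, where *Cideb* had 0.01 before it. *Ces1g* (1.06 ± 0.32 SE) and *Tmem41b* (0.62 ± 0.15 SE) lay above the median and *Aadac* (-0.31 ± 0.11 SE) below it. Their limma adjusted p, for a difference from 0 and not from the median, were 0.0960, 0.0587 and 0.120. The females did not overlap the males for 7 of the 10 members, *Tm6sf2*, *Cideb* and *Ces1d* being the others. Values did not overlap for 41.6% of all genes.

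Some lists of markers for other liver cells moved with the female mice, but the cholangiocyte list did not. The cholangiocyte list was at 36.26 and 39.24 TPM in females and at 15.03 to 59.27 TPM in males. In it, 0 of 6 genes were higher, and 0 lower, in both females than in every male. The lymphocyte list had 3 of 6 genes higher in both females than in every male. The 9 Kupffer cell and macrophage markers summed to 602 and 653 TPM in females and to 173 to 258 TPM in males, and all 9 were higher in both females than in every male. The endothelial list was at 180 and 209 TPM in females and at 82.4 to 139 TPM in males. In it, 6 of 7 genes were higher in both females than in every male. The stellate list was at 238 and 250 TPM in females and at 89.1 to 183 TPM in males, with 5 of 6 genes higher in both females. The hepatocyte list was at 126700 and 132200 TPM in females and at 93780 to 123700 TPM in males, with 2 of its 11 genes higher and 3 lower in both females than in every male. The erythroid list was at 103 and 131 TPM in females and at 172 to 408 TPM in males, with 4 of 5 genes lower in both females. These counts stand beside 41.6% of all genes whose values did not overlap between the sexes, in either direction. The part of these marker differences in the members' values was not tested.

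The genotype difference did not pass a test of interaction with sex for any member. *Ces1d* had the smallest unadjusted p of the 10 (limma unadjusted p = 0.0179, adjusted p = 0.775). In its 2 male pairs *Ces1d* was higher in *Alb-Cre*+ (log2 differences 0.61 and 1.46) and in the female pair lower (-0.44). This interaction rests on 1 female mouse per genotype.

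The members were also compared by their pattern over the 6 mice. Measured as the root mean square distance between centred log2 values, *Ces3a* and *Ces3b* were each other's nearest member (0.51), as were *Ces1d* and *Ces1g* (0.35), *Mttp* and *Pla2g12b* (0.19), and *Tm6sf2* and *Cideb* (0.20). The last 2 distances are about as large as these genes' own spread around their means (0.15 to 0.25), so they say little beyond small variation. *Ces3a* and *Ces3b* varied together without keeping 1 ratio, which was 4.03 to 4.83 in males and 8.13 and 9.66 in females.

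The promoter table of RefSeq (GRCm38.p6) held 7 of the 10 members. *Ces3b*, the member with the largest difference between the sexes, is shown by the 250 bases before its start, chr8:105083505-105083754 on the plus strand, which end just before the first base of its main transcript in GENCODE M21. Capitals mark a TATA box 30 bases before the start and a match to the sterol regulatory element 178 bases before it, on the minus strand:

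Ces3b: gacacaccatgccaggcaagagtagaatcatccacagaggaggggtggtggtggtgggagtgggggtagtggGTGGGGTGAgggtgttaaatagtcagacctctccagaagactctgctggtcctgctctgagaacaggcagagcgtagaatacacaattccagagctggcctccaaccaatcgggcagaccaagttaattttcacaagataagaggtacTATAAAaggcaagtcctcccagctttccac

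On either strand of these windows, the letters of the TATA box, TATAAA, occurred in 3 of the 7 members (*Ces1g*, *Ces3b* and *Cideb*) and in 12.4% of all 32851 promoters. In *Cideb* the match was 172 bases before the start. In *Ces1g* it was on the minus strand, 26 bases before a start that lies 99 bases downstream of the start of its main transcript. The sterol regulatory element TCACNCCAC occurred in 1 of the 7 and in 1.05% of all promoters. No match was found in the 7 windows to the motifs of HNF4A (CAAAGTCCA, 0.384% of all promoters), FOXA (TGTTTAC, 3.17%), C/EBP (TTGCNNAA, 9.56%), STAT5 (TTCNNNGAA, 7.02%) or XBP1 (ACGTGG, 6.91%), which says only that these letters are not in these windows. For *Mttp* the window in the table belongs to a start 12041 bases upstream of the transcript that carried 97.7% to 99.0% of its TPM.

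At the level of transcripts, protein coding forms made up at least 91.4% of TPM in every mouse for 9 of the 10 members. *Tmem41b* was the exception, with 35.5% to 47.2% in its 3 coding transcripts and 34.65% to 46.0% in 1 transcript annotated for nonsense mediated decay. The coding transcripts of *Tmem41b* summed to 6.36, 9.54 and 5.87 TPM in *Alb-Cre*+ mice and to 5.53, 10.4 and 6.53 TPM in controls, and the groups overlapped. Of these coding transcripts, 1 was listed at 0 in 3 of the 6 mice and at 4.06 to 7.87 TPM in the others, so the division between forms of *Tmem41b* varied from mouse to mouse. For *Ces3a* and *Ces3b* the main transcript carried 78.7% to 83.0% and 84.9% to 91.0%, over all 6 mice.

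The genes around VLDL assembly were read as 4 lists, of which 78 of 79 genes were tested. None passed the threshold, 39 were higher and 39 lower in *Alb-Cre*+ mice, and their median log2 difference was 0.00. An unadjusted p under 0.05 was seen for 3 of the 78 genes (*Apoa4*, *Lipa* and *Surf4*), all lower, against 1.76% of all genes, and the first and last of these were known from earlier results of these data. With the replicate block this count was 10, 5 higher and 5 lower, against 4.69% of all genes.

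Among genes for the structure and loading of the APOB particle, 3 of 12 were higher and 9 lower. *Apob* was at 519, 743 and 550 TPM in *Alb-Cre*+ mice and at 506, 792 and 533 TPM in controls, a log2 difference of -0.003 ± 0.22 (SE). *Apoa4*, an apolipoprotein of triglyceride-rich particles, had the largest difference, with 224, 369 and 62.6 TPM in *Alb-Cre*+ mice and 1161, 3344 and 1147 TPM in controls (log2 difference -3.25 ± 0.70 SE, limma unadjusted p = 0.00227, adjusted p = 0.9999). *Apoe* (-0.20 ± 0.29 SE) and *Apoc3* (0.01 ± 0.20 SE), the other apolipoproteins at high level, were close to 0, and *Apobec1*, the APOB mRNA editing enzyme, was highest (0.23 ± 0.51 SE).

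Among genes that supply triglyceride, 13 of 19 were higher and 6 lower. *Lipa*, the lysosomal acid lipase, was at 60.7, 75.75 and 43.7 TPM in *Alb-Cre*+ mice and at 104.5, 118 and 81.25 TPM in controls. These groups did not overlap, with a log2 difference of -0.77 ± 0.23 (SE), limma unadjusted p = 0.0124 and adjusted p = 0.9999. The genes at the highest level were *Plin2*, the lipid droplet coat protein (0.54 ± 0.52 SE), *Hsd17b13*, an enzyme of the droplet surface (0.08 ± 0.29 SE), and *Dgat2*, which makes triglyceride (0.08 ± 0.14 SE). *Cidec*, a droplet fusion protein and relative of *Cideb*, had the lowest difference (-1.71 ± 0.98 SE), with 7.09, 35.75 and 9.85 TPM in *Alb-Cre*+ mice and 26.8, 195 and 17.0 TPM in controls. In the paired fit *Cidec* reached an unadjusted p of 0.00226 (limma adjusted p = 0.4715). Within same-numbered pairs its log2 differences were -1.90, -2.44 and -0.78. Without the female control, at 195 TPM, the unpaired log2 difference of *Cidec* was -0.65 (limma unadjusted p = 0.381). That fit sets only male controls against a group that holds a female, and *Cidec* was higher in both females than in every male. *Fitm1* had the highest difference (0.62 ± 0.32 SE).

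Among genes of ER exit and secretion, 10 of 24 were higher and 14 lower, and *Surf4*, the deleted gene, was the 1 with an unadjusted p under 0.05 (-0.60 ± 0.13 SE, limma unadjusted p = 0.00269, adjusted p = 0.9999). *Sar1b*, the GTPase that starts the COPII coat, was at 0.01 ± 0.21 (SE), *Mia2*, a receptor for large cargo, at -0.19 ± 0.11 (SE), *Tmed2* at -0.06 ± 0.12 (SE) and *Sec24b* at 0.26 ± 0.24 (SE). *Mia2* did not overlap, with 124.5, 144 and 125 TPM in *Alb-Cre*+ mice and 150, 147 and 151 TPM in controls. Among regulators of these genes, 13 of 23 were higher and 10 lower and none had an unadjusted p under 0.05. *Hnf4a*, which drives many hepatocyte genes with *Mttp* among them, was at 0.08 ± 0.18 (SE), *Creb3l3* at 0.26 ± 0.15 (SE) and *Xbp1* at 0.16 ± 0.33 (SE). *Ppargc1a*, a coactivator of fasting metabolism, was lowest (-1.08 ± 0.53 SE). With the replicate block 4 of these 23 had an unadjusted p under 0.05, against 4.69% of all genes.

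Among relatives of the members, 15 of 24 genes were tested, with 8 higher and 7 lower. *Ces2g*, given above, and *Tmem41a*, a paralog of *Tmem41b*, had an unadjusted p under 0.05. *Tmem41a* was at 8.59, 11.3 and 6.702 TPM in *Alb-Cre*+ mice and at 12.3, 14.2 and 12.6 TPM in controls (-0.58 ± 0.21 SE, limma unadjusted p = 0.0294, adjusted p = 0.9999), and did not overlap. *Ces1c* (-0.11 ± 0.20 SE), *Ces2a* (-0.10 ± 0.68 SE) and *Ces1f* (0.40 ± 0.24 SE) were among the most abundant relatives, and *Ces2c* had the highest difference (1.16 ± 0.65 SE).

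**Figure D4:**
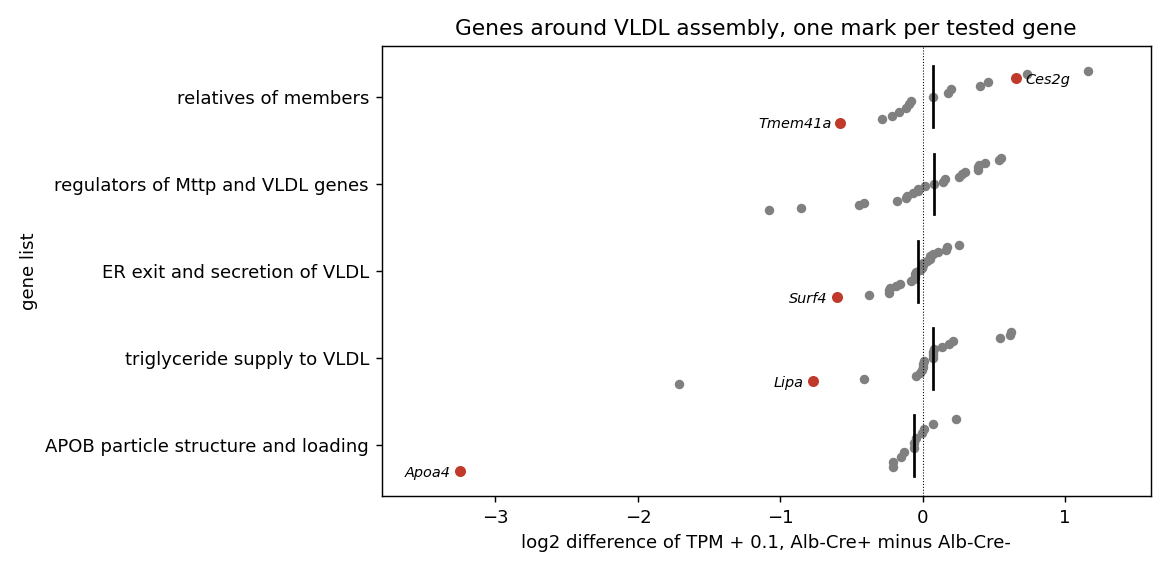
Log2 differences of TPM + 0.1, *Alb-Cre*+ minus *Alb-Cre*-, for each tested gene of 5 lists, with red marks for an unadjusted p under 0.05 and a black line at each list's median. The medians lie between -0.06 and 0.08, and *Apoa4* (-3.25) lies apart from the rest.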

How the data were processed

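Liver RNA of 6 mice was sequenced. The authors deposited TPM per transcript and mouse, from a table labelled as salmon output, while the methods and processing notes also name STAR, RSEM and DESeq2, on GRCm38. They also deposited a DESeq2 comparison, whose fold changes and p-values were not used and whose mean normalized count (a signal pooled over mice) was read only as the authors' mean. TPM keep no read numbers, so depth is unknown.

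TPM were summed over transcripts per gene symbol, leaving out 163 rows without a symbol (at most 0.0887% of TPM). The 14189 genes whose mean reached 0.1 TPM were tested after log2 transformation with a pseudocount of 0.1 TPM, by limma 3.58.1 under R 4.3.3 (variance trend, genotype as the only factor, Benjamini-Hochberg adjustment, threshold 0.01). The fit was also run on simulated data, which held independent mice and so lacked the likeness of same-numbered mice seen here. Fold changes on this scale understate those of low genes. Exact tests used scipy 1.17.1.

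The 10 genes and the gene lists were chosen with earlier results of these data known. Named from each list were genes with an unadjusted p under 0.05, up to 3 at the highest mean TPM, and those with the lowest and highest difference. *Apob* and *Ces5a* were named in addition to this rule. A gene that meets this rule is not reported here. The 6 mice matched their sex labels by Y-linked genes. Same-numbered mice deviated together from their genotype means (correlations across genes of 0.452 to 0.690, between males of different number 0.111 to 0.243), so the replicate number was also fitted as a block. The controls were littermates, but whether a shared number marks a litter is not given in the sources used here. Alternatives were a pseudocount of 1 TPM, no filter, a minimum mean of 1 TPM, median of ratios, the block, sex as covariate, no trend, an adjusted p of 0.05 and each mouse left out. The comparison of the sexes, and the block with median of ratios, were added after seeing the data. Transcript types came from GENCODE M21, in which all transcripts of the members were found by unversioned identifier.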

Additional observations from a re-analysis of the deposited data

How the results depend on the processing

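No member passed the threshold between genotypes under any alternative run, and the median log2 difference of the members stayed between -0.06 and 0.11 when each mouse was left out. The number of mice limits the precision, as do TPM without read numbers. Pairing the mice by a replicate block changed no call at the threshold. The block raised the genes with an unadjusted p under 0.05 from 250 to 666 (775 with median of ratios too), the members from 0 to 1 under both, the triglyceride supply list from 1 to 4 (3), the regulators from 0 to 4 (4) and the relatives from 2 to 4, and the block with median of ratios raised the ER exit list from 1 to 2. Sex as a covariate gave 531 genes, with 2 in the triglyceride supply list and 2 regulators, and no filter gave 442 genes. Leaving out each mouse gave 185 to 505 genes at an unadjusted p under 0.05 and 0 to 1 past the threshold (1 without *Alb-Cre*+ replicate 1), with 0 to 2 members, 1 to 4 genes of triglyceride supply, 1 to 3 of ER exit, 0 to 4 regulators and 0 to 4 relatives. The cause was not tested.

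Leaving out a mouse turned the sign of small, uncalled genotype differences, which then ranged from -0.31 to 0.024 (*Tm6sf2*), -0.15 to 0.049 (*Pla2g12b*), -0.35 to 0.61 (*Ces3a*), -0.81 to 0.84 (*Ces3b*), -0.16 to 0.052 (*Aadac*), -0.092 to 0.32 (*Tmem41b*), -0.33 to 0.66 (*Apobec1*), -0.090 to 0.11 (*Apoc3*), -0.24 to 0.046 (*Ces1c*), -0.62 to 0.51 (*Ces2a*), -0.027 to 0.15 (*Dgat2*), -0.072 to 0.18 (*Hnf4a*), -0.19 to 0.24 (*Hsd17b13*), -0.16 to 0.18 (*Sar1b*) and -0.25 to 0.44 (*Xbp1*). For female minus male the ranges were -0.23 to 0.23 (*Tm6sf2*), -0.066 to 0.093 (*Cideb*) and -0.059 to 1.42 (*Ces1d*), and median of ratios gave -0.082 for *Mttp* and -0.27 for *Cideb*. Between the sexes, 73 genes and 1 member passed. This became 28 genes with no filter, 31 genes and 0 members without the variance trend (*Ces3b* adjusted p = 0.0102, limma), 1019 genes and 2 members at 0.05, and 3 to 38 genes with 0 to 1 members when a mouse was left out. Of the 73 genes, 64.4% were higher in females, against 58.1% of the 62 that passed after median of ratios.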
